A study of Mus musculus with 16 samples.

Results

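Germinal vesicle (GV) oocytes were compared with the largest growing oocytes of the study, 60-65 um in diameter, in 1 GV library and 2 libraries (replicates A and B) of the 60-65 um class. Of the 25965 genes in the RNA table, 9988 reached 0.5 RPKM (reads scaled to the exon length of the gene and to the total of the library) in at least 2 of these 3 libraries. A gene was set apart when its GV value lay outside both 60-65 um values by 1.5-fold or more, which gave 377 genes, 175 of them higher and 202 of them lower in GV. These values chose the genes, and with a single GV library there is no replicate of GV and no test of GV against 60-65 um, so that all values of this comparison are a description of 3 libraries. The study describes more GV libraries than the table has GV columns, and which of them the column holds is not given in the sources used here. Its values have the read steps of a single library total, which reads of several libraries pooled before scaling would also give.

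All oocytes were wild-type and came from mice of the C57BL/6 background, given as C57BL/6Babr in the methods, after digestion of ovaries with collagenase and trypsin and washing to remove somatic cells. Oocytes of 10-30 um were collected at postnatal days 5 to 7, those of 40-45 um at days 7 to 12, those of 50-55 um at days 9 to 14 and those of 60-65 um at days 13 to 16, whereas GV oocytes were collected at day 20 and carry no diameter in the labels. Stage and age of the mice therefore changed together and cannot be told apart. Each library pooled oocytes, and fewer oocytes or less RNA per oocyte cannot be told apart in values that are relative to the total of a library.

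The GV oocyte is the fully grown oocyte, arrested in the first meiotic prophase with a large intact nucleus. Towards this stage the chromatin condenses around the nucleolus and transcription stops, and the oocyte then relies on stored messenger RNA through maturation, fertilisation and the first cleavage. Its RNA differs from that of a growing oocyte by what was still transcribed late in growth and by what decayed.

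The whole RNA series has 9 libraries of 99370000 to 198300000 counted reads (to 4 digits), with 198300000 in GV, 105100000 in 60-65 um A and 180900000 in 60-65 um B. The 14 oocyte markers were all present, with summed levels of 3522 and 3665 RPKM at 60-65 um and 3266 RPKM in GV. The 20 granulosa and cumulus markers summed to 9.50 and 8.72 RPKM at 60-65 um and 11.9 RPKM in GV, with 4 of them at 0.5 RPKM or more and 2, 2 and 3 at 0. The 18 theca, stroma, vessel and blood markers summed to 6.02, 5.66 and 6.45 RPKM.

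GV oocytes were close to 60-65 um oocytes over most genes. The median log2 ratio of GV to the mean of the 60-65 um libraries was -0.02, with a 10th percentile of -0.38 and a 90th percentile of 0.29, against -0.17 and 0.25 for replicate A over replicate B. The genes higher in GV made up 1.75% and the genes lower in GV 2.02% of the genes compared. Replicates A and B themselves differed by 1.5-fold or more, in either direction, at 157 genes. That count takes 1 pair of libraries, whereas GV had to lie outside both, so the counts are not alike. With a 50-55 um library in the place of GV, the rule for GV set apart 10 higher and 131 lower genes with replicate A and 49 higher and 289 lower genes with replicate B.

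**Figure D1:**
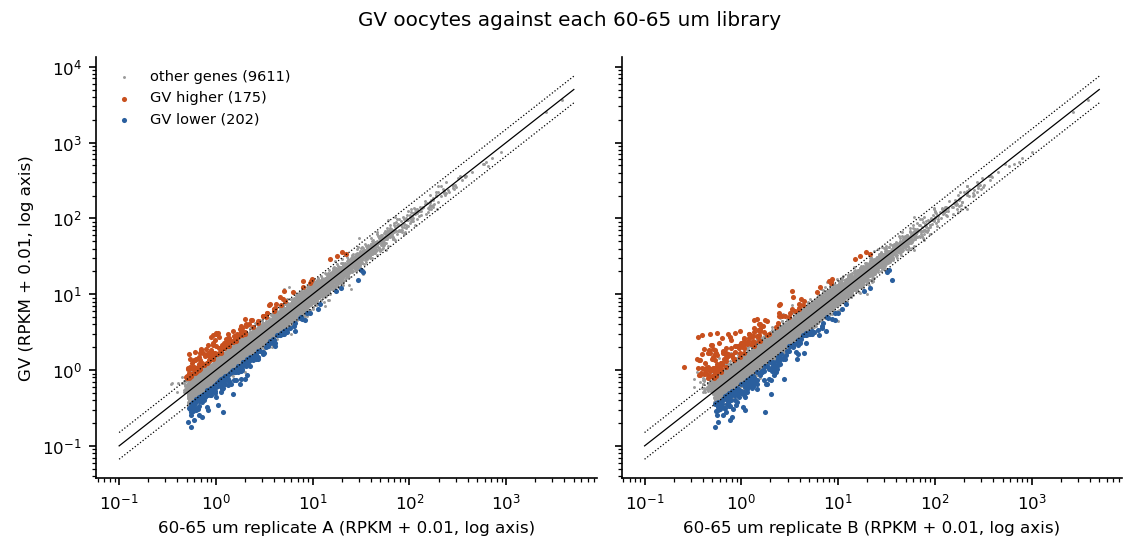
Values of the 9988 genes in the GV library (vertical, RPKM + 0.01, log axis) against 60-65 um replicate A (left) and replicate B (right), where a point is a gene, the solid line marks equal values and the dotted lines mark 1.5-fold. The 175 higher and 202 lower genes lie mostly at low levels, where 16 and 17 of them averaged 5 RPKM or more.

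Most of the genes set apart were of low abundance. Their median level was 1.97 RPKM in GV for the higher genes and 1.20 and 1.32 RPKM at 60-65 um for the lower genes, while the median over all genes compared was 3.36 RPKM in GV. The median fold against the nearer 60-65 um value was 1.70 among the higher and 1.63 among the lower genes, and 38 higher and 26 lower genes reached 2-fold. In the library with the fewest reads, the median gene still had 359 reads among the higher and 328 reads among the lower genes, and 20 and 15 genes had under 100 reads in at least 1 of the 3 libraries.

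The gene with the largest fold among the abundant higher genes was Mbd3l2 (chromosome 9, 18443456 to 18446312, GRCm38), which encodes a relative of the methyl-CpG binding protein MBD3 without its DNA-binding domain. Its values were 0.0970 and 0.0697 RPKM at 10-30 um, 0.433 and 0.267 RPKM at 40-45 um, 2.07 and 1.15 RPKM at 50-55 um, 5.04 and 3.29 RPKM at 60-65 um and 10.9 RPKM in GV. Every size class lay above the one before, and GV lay 2.16-fold above the higher 60-65 um value.

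Trps1, a GATA-type zinc finger repressor (chromosome 15, 50654761 to 50890041), had 4.61 and 3.44 RPKM at 60-65 um and 9.07 RPKM in GV, after 0.653 and 0.514 RPKM at 10-30 um. Ms4a1, best known as the B-cell surface protein CD20, had 3.55 and 2.42 RPKM at 60-65 um and 7.27 RPKM in GV. The uncharacterised gene 9130409I23Rik (chromosome 1, 181051237 to 181060667) had 3.58 and 2.48 RPKM at 60-65 um and 7.34 RPKM in GV. In these 3 genes replicate A of 60-65 um lay above replicate B, and GV lay above both.

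The higher genes included 2 with a PRAME family name in RefSeq, a family of leucine-rich repeat proteins with many copies that are found in germ cells, and how many of its genes were compared was not counted. Gm3259, named Pramel47, had 7.97 and 8.002 RPKM at 60-65 um and 14.99 RPKM in GV. Gm13089, named Pramel23, had 4.88 and 4.09 RPKM and 8.64 RPKM in GV. Gm3259 lies on chromosome 5 between 94339749 and 95343917, where 4 of the 6 genes compared were higher in GV. The interval was drawn around these 4 genes, so this share is high by construction and not comparable with the 1.75% of all genes compared. The others there were Gm7919 with 15.2, 14.9 and 29.3 RPKM, AC130832.1 with 20.3, 19.2 and 35.9 RPKM, and AA792892 with 18.0, 16.8 and 31.6 RPKM in 60-65 um A, B and GV. Neighbouring copies of such a family can share reads, so that the value of each copy is uncertain and the 4 genes are not independent.

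Further abundant higher genes were Nlrp9a, of the NLR family expressed in oocytes, with 22.2 and 21.2 RPKM at 60-65 um and 33.9 RPKM in GV, and Zfp616, a zinc finger gene, with 6.25, 6.10 and 10.6 RPKM. Nlrp9a, at 1.53-fold close to the limit, was no longer set apart with a correction for GC content. Gm3677 on the X chromosome had 9.86, 8.67 and 15.8 RPKM. Gm11827, E330010L02Rik, Gm7437, C86695 (Fam90a1a in RefSeq) and Agr3 lay 1.68-fold to 1.765-fold above the higher 60-65 um value. Of the higher genes 14 lay on the X chromosome (8.0%), and of the lower genes 12 (5.94%), against 3.15% of the genes compared.

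**Figure D2:**
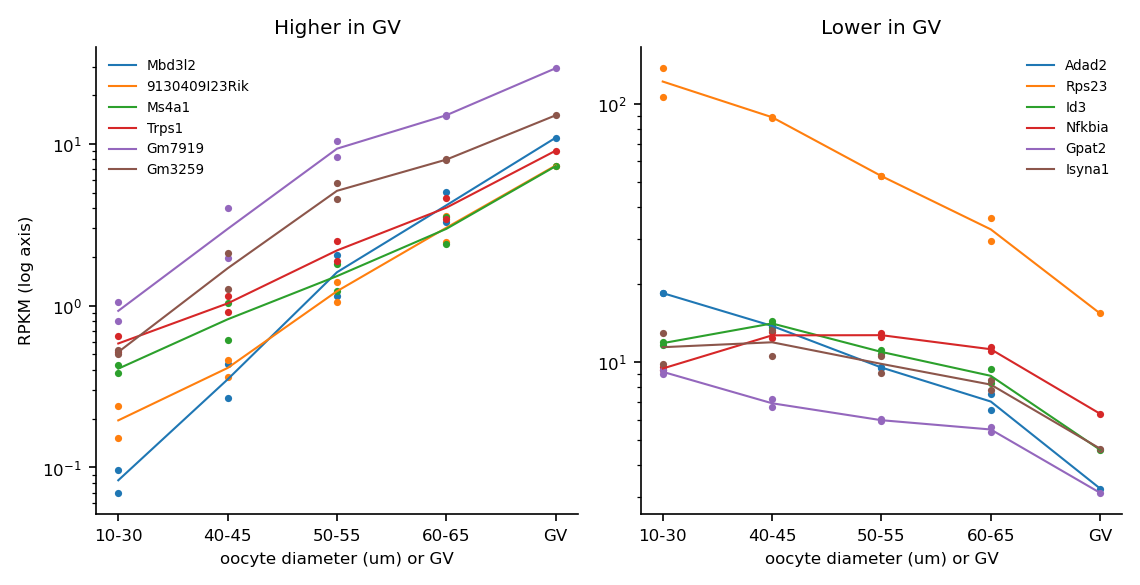
RPKM (log axis) of the 6 genes with the largest fold in each direction among genes of at least 5 RPKM, by oocyte diameter or GV, with a point for each library and lines through the means of the size classes. Mbd3l2 went from under 0.1 RPKM at 10-30 um to 10.9 RPKM in GV, and Rps23 from over 100 RPKM to 15.4 RPKM.

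The lower gene with the largest fold was Sohlh1 (chromosome 2, 25842995 to 25847248), a basic helix-loop-helix factor of early follicle formation. It had 49.6 and 45.0 RPKM at 10-30 um, 8.99 and 13.4 RPKM at 40-45 um, 2.98 and 3.51 RPKM at 50-55 um, 1.17 and 1.74 RPKM at 60-65 um and 0.274 RPKM in GV. GV lay 4.26-fold under the lower 60-65 um value, with 70 reads in GV.

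Among the abundant lower genes, Adad2 (chromosome 8, 119612747 to 119616926), a germ-cell protein with an adenosine deaminase domain, had 6.53 and 7.56 RPKM at 60-65 um and 3.25 RPKM in GV, after 18.5 and 18.5 RPKM at 10-30 um. Rps23 (chromosome 13, 90923131 to 90924942), a protein of the small ribosomal subunit, had 29.3 and 36.0 RPKM at 60-65 um and 15.4 RPKM in GV. Both were lower at each larger diameter by the mean of the class. Rps23 has processed copies in the genome, and reads shared with them leave its level uncertain.

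Id3, an inhibitor of basic helix-loop-helix factors, had 8.34 and 9.38 RPKM at 60-65 um and 4.58 RPKM in GV. Nfkbia, the inhibitor of NF-kappaB, had 11.4 and 11.04 RPKM and 6.32 RPKM in GV. Ier2, an immediate early gene, had 1.76 and 1.85 RPKM and 0.636 RPKM in GV. It was the 1 gene set apart among the 12 immediate early and stress genes compared, of which 7 lay below both 60-65 um values and 1 above both, while 2.02% of all 9988 genes were lower and 4411 lay below both.

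The cytoplasmic actins were lower in GV. Actg1 had 32.9 and 31.8 RPKM at 60-65 um and 19.4 RPKM in GV, and Actb had 31.2 and 33.6 RPKM and 20.5 RPKM. Actb was the gene just inside the 1.5-fold limit, and Hsp90ab1, a cytosolic chaperone, was just outside it with 57.2, 61.5 and 38.2 RPKM. On the other side Dnajb4, a co-chaperone, was just inside with 9.43, 8.43 and 14.2 RPKM, and Gnrh1, which encodes gonadotropin-releasing hormone, just outside with 9.77, 7.59 and 14.6 RPKM. After trimmed-mean scaling of the libraries Actb was no longer set apart, nor were Actb and Dnajb4 with 1 RPKM added to each value or with a correction for GC content.

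Further abundant lower genes had the following values. Isyna1, the synthase of inositol phosphate, had 7.82, 8.57 and 4.63 RPKM in 60-65 um A, B and GV. Pla1a, a phospholipase, had 5.30, 6.18 and 3.41 RPKM, and Esyt3, a lipid transfer protein of membrane contacts, had 6.56, 7.01 and 4.14 RPKM. H2-K1, a class I molecule of the major histocompatibility complex, had 5.86, 6.80 and 3.599 RPKM, after 23.4 and 20.6 RPKM at 10-30 um. With 1 RPKM added to each value H2-K1, Esyt3 and Pla1a were no longer set apart, and with a correction for GC content Isyna1, Zfp707 and Gm10566 were not. Commd4, Tex19.2, Zfp707 and the pseudogene Gm10566 lay 1.68-fold, 1.67-fold, 1.66-fold and 1.596-fold under the lower 60-65 um value.

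Lists of meiosis, stored messenger RNA and the egg are to be read against the 1.75% higher and 2.02% lower genes among all compared, shares at which lists of this size hold few or none. Of 28 genes of meiotic arrest and resumption, Ccnb3, the cyclin B3 of the first meiotic anaphase, was higher in GV with 1.85 and 1.57 RPKM at 60-65 um and 3.27 RPKM in GV, and none was lower. None was set apart among 37 genes of the spindle, its checkpoint and anaphase, 25 genes of messenger RNA storage, 29 genes of deadenylation and decay, and 20 genes of the zona pellucida, secreted factors and the egg surface. Their median log2 ratios were 0.02, 0.07, 0.11 and -0.05. Of 28 genes of the subcortical maternal complex and maternal effect, Nlrp9a alone was set apart, and not with the correction for GC content.

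Among 35 genes of DNA methylation and chromatin, 2 were higher and 1 was lower, against 1.75% and 2.02% of all genes compared. Nsd1, a methyltransferase of histone H3 lysine 36, had 4.72 and 4.34 RPKM at 60-65 um and 7.15 RPKM in GV. Mll2 on chromosome 15, which is Kmt2d in RefSeq and encodes a methyltransferase of histone H3 lysine 4, had 1.12 and 0.932 RPKM and 1.97 RPKM in GV. Ehmt2, which encodes the histone H3 lysine 9 methyltransferase G9a, had 1.92 and 2.15 RPKM and 1.15 RPKM in GV. Of 45 genes of RNA polymerase II and the general transcription factors only Cdk9, the kinase of transcription elongation, was set apart, with 1.91, 2.08 and 1.24 RPKM, which for a list of this size is about the 2.02% of all genes that were lower.

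Genes of the piRNA pathway, which silences transposons in germ cells, are a list chosen after the values were seen. Of 19 compared, 1 was higher and 3 were lower, against 1.75% and 2.02% of all genes compared, and after trimmed-mean scaling 2 were lower, without Fkbp6. Piwil1, a PIWI protein, had 0.965 and 0.533 RPKM at 60-65 um and 1.66 RPKM in GV. Piwil2 had 4.79, 4.97 and 2.97 RPKM, Gpat2, a mitochondrial acyltransferase, had 5.36, 5.63 and 3.12 RPKM, and Fkbp6, a co-chaperone, had 4.99, 5.37 and 3.299 RPKM.

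Genes of the translation and energy machinery lay mostly below both 60-65 um values, as did 4411 of all 9988 genes. Of 81 cytosolic ribosomal proteins 67 lay below both values and 1 above both, with a median log2 ratio of -0.22, yet Rps23 was the 1 gene past 1.5-fold. Of 74 nuclear genes of oxidative phosphorylation 63 lay below both, with a median of -0.21, and 2 were set apart (2.02% of all genes compared were lower), Cyc1 (cytochrome c1) with 3.63, 3.74 and 2.25 RPKM and Atp5g3 (a subunit of the ATP synthase) with 3.41, 3.51 and 2.19 RPKM. Of 20 genes of cholesterol synthesis and uptake, Pmvk, with 1.87, 2.36 and 1.17 RPKM, and Tm7sf2, with 1.08, 1.22 and 0.715 RPKM, both enzymes of the pathway, were lower, against 2.02% of all genes compared, and after trimmed-mean scaling 1 was, without Tm7sf2.

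The 13 coding genes of the mitochondrial genome had a median log2 ratio of 0.26. Of them 7 lay above both 60-65 um values, as did 3695 of all 9988 genes. Replicate A of 60-65 um lay under replicate B at all 13, as for mt-Nd2, a subunit of complex I, with 5.09 and 8.86 RPKM at 60-65 um and 11.8 RPKM in GV. None of the 13 was set apart.

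Replication-dependent histone genes, whose messenger RNA has no poly(A) tail and is read in these libraries of total RNA, lay mostly below 60-65 um. Of 56 compared, 44 lay below both 60-65 um values, against 4411 of all 9988 genes. Set apart were 6, all of them lower (2.02% of all genes compared were lower), and the median log2 ratio over the list was -0.25. Of the 6, 4 lay on chromosome 13 between 23551258 and 23762386, an interval drawn around these 4, where 14 genes were compared. There Hist1h4b had 1.86 and 2.32 RPKM at 60-65 um and 1.03 RPKM in GV, and Hist1h3a had 4.61, 6.28 and 2.91 RPKM. Histone genes are near-identical copies, and how the reads were divided among them is not known.

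**Figure D3:**
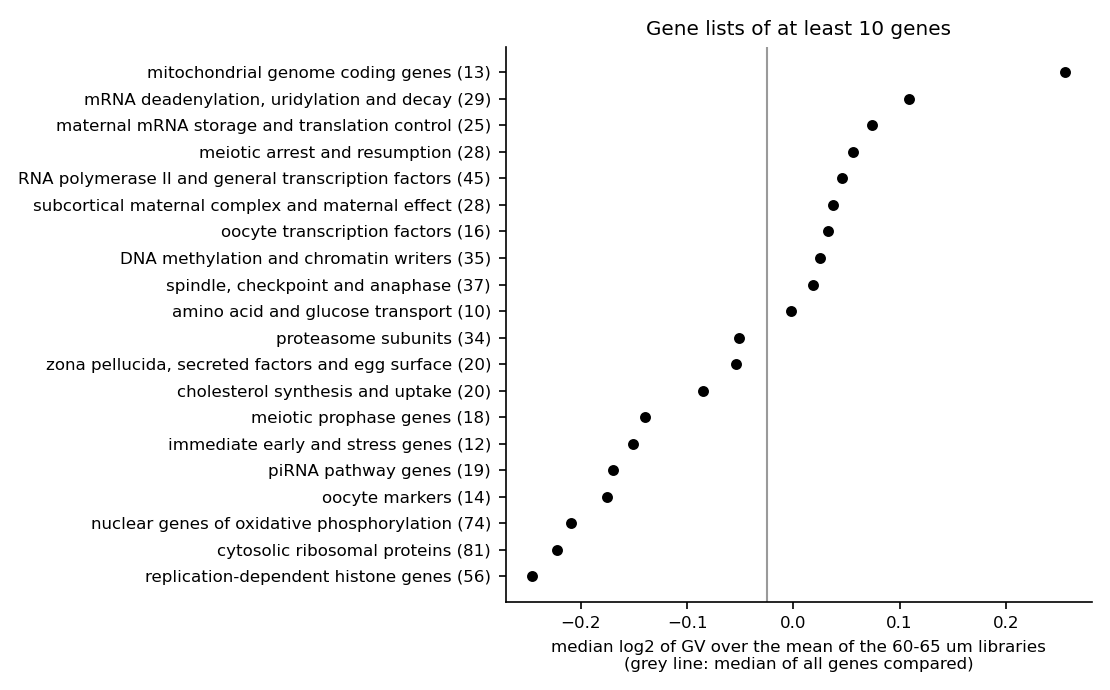
Median log2 ratio of GV to the mean of the 60-65 um libraries (horizontal) for the gene lists with at least 10 genes compared, with the number of genes in brackets and the median of all genes compared as a grey line. Histone, ribosomal protein and oxidative phosphorylation genes lie lowest, between -0.25 and -0.21, and the mitochondrial genome genes highest at 0.26.

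Of the granulosa and cumulus markers 4 were compared, and they went in both directions. Cyp19a1, the aromatase that makes oestrogen, had 1.25 and 1.04 RPKM at 60-65 um and 2.53 RPKM in GV. Inha, the alpha subunit of inhibin, had 0.542 and 0.528 RPKM and 0.168 RPKM in GV. The transcription factors Gata4, with 1.34, 1.17 and 1.75 RPKM, and Nr5a2, with 4.81, 4.6001 and 5.56 RPKM, were within 1.5-fold. Over the whole list of 20, GV lay above both 60-65 um values at 8 genes and below both at 9. Among all 9988 genes compared, GV lay above both at 3695 and below both at 4411. Kitl, the ligand of the oocyte receptor Kit, had 0.495, 0.409 and 0.907 RPKM, while the defining markers Foxl2, Amh and Fst were at or under 0.23 RPKM in the 3 libraries. The 16 markers that were not compared summed to 1.56, 1.37 and 1.85 RPKM. The part of granulosa cells in these values was not tested. Pecam1 was the 1 gene compared among the theca, stroma, vessel and blood markers, with 4.70, 4.19 and 5.68 RPKM.

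The genes set apart were next followed in 6 libraries that the rule had not used, those of 10-30, 40-45 and 50-55 um. In a limma fit of 10321 genes, with no block for the replicate letters, 2458 rose (23.8%) and 2631 fell (25.5%) from 10-30 to 50-55 um at an adjusted p under 0.05. Of the 175 genes higher in GV, 86 were abundant enough in these libraries to be tested, of which 62 rose and 7 fell. The other 89 were below 0.5 RPKM in at least 5 of the 6 libraries and are not covered by this count. Of the 86, 31 passed the filter only through the 50-55 um libraries, and 29 of these rose, but a gene that passes in this way is bound to be high at 50-55 um, and 80.9% of all 257 such genes rose. The other 55 passed in the libraries of smaller oocytes alone, of which 33 rose and 7 fell, against 2250 and 2631 of all 10064 such genes. This split was chosen after the values were seen. With no filter all 175 were tested, and 125 rose and 4 fell, against 17.9% and 16.8% of 19674 genes. All 175 were at 0.5 RPKM or more in GV, a condition that the 19674 genes did not have to meet. A rise is therefore in part built in for the 175, and the shares are not matched. Of the 202 genes lower in GV, 200 were tested, of which 97 fell (48.5%), 33 rose and 70 did not pass.

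The counts also depended on the libraries. Without replicate A and without replicate B of 50-55 um, the genes that rose went from 62 to 35 and 40 among the higher genes, from 33 to 21 and 15 among the lower genes, and from 2458 to 1358 and 1446 among all genes. The 7 higher genes that fell became 3 and 2 in these fits, and 1 and 4 without replicate A and without replicate B of 10-30 um. The higher genes that rose numbered 102 when the 60-65 um libraries, which the rule had used, were added to the fit.

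By log2 fold change from 10-30 to 50-55 um, Gm3677 rose by 4.21 (SE 0.24, adjusted p = 0.000169 in limma) and Nlrp9a by 1.72 (SE 0.13). Mbd3l2 passed the filter only through the 50-55 um libraries, so its values above stand as a description. Sohlh1 fell by 3.80 on the log2 scale (SE 0.19), Piwil2 fell by 1.29 (SE 0.13), Rps23 fell by 1.17 (SE 0.15) and Adad2 fell by 0.92 (SE 0.10). Some genes lower in GV had moved the other way earlier, such as Klhl21, an adaptor of a ubiquitin ligase, which rose by 0.63 (SE 0.15, adjusted p = 0.0123 in limma), and Nfkbia, which rose by 0.46 (SE 0.10). Id3 had a log2 change of -0.08 (SE 0.10, adjusted p = 0.548 in limma) and Nsd1 one of 0.15 (SE 0.11, adjusted p = 0.289 in limma).

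**Figure D4:**
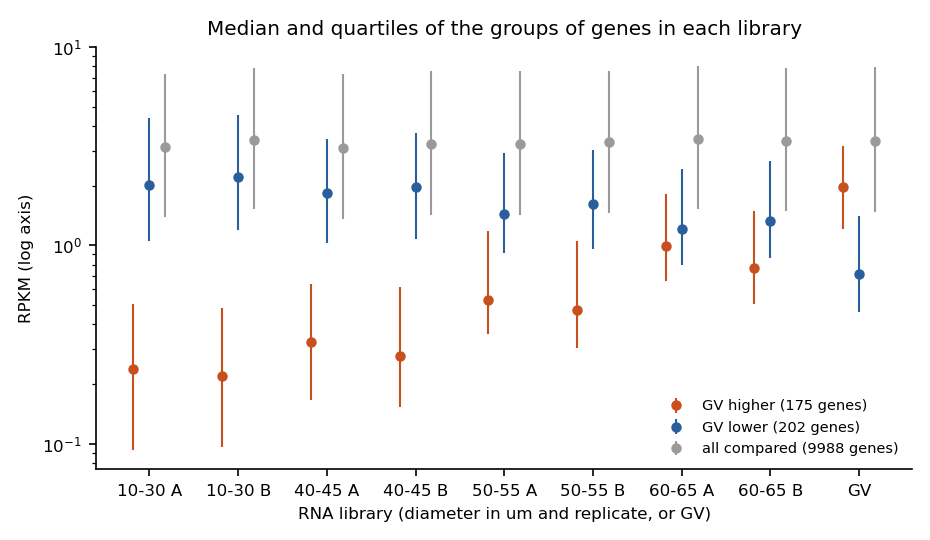
Median RPKM (log axis, points) and quartiles (bars) of the 175 higher genes, the 202 lower genes and all 9988 genes compared in each of the 9 RNA libraries. The median of the higher genes goes from 0.22 RPKM in 10-30 um B to 1.97 RPKM in GV, and that of the lower genes from 2.20 to 0.72 RPKM.

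Replicates A and B differed at the genes set apart. At 60-65 um replicate A lay above replicate B in 165 of the 175 higher genes (94.3%) and in 42 of the 202 lower genes (20.8%), against 52.8% of all genes compared, so that replicate A was the nearer of the pair to GV in most of them. In the libraries of 50-55 um, which the rule had not used, replicate A lay above replicate B in 149 of the 175 higher genes (85.1%) and in 65 of the 202 lower genes (32.2%), against 51.9%. The part of this difference between replicates in the comparison with GV was not tested.

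The genes set apart differed in sequence composition. The median GC content of the transcript was 46.4% for the higher genes, 55.7% for the lower genes and 49.2% for all genes compared, with 96.0%, 97.0% and 98.5% of the genes matched. In 5 equal classes of genes by GC, from the lowest class to the highest, the share of higher genes went from 2.54% to 0.508% and that of lower genes from 0.458% to 5.44%. The median log2 ratio of GV to 60-65 um went from 0.04 to -0.16 over the same classes, and that of 60-65 um replicate A to replicate B from -0.05 to 0.04. When each library was divided by its median ratio within 10 classes of GC, the rule set apart 175 higher and 124 lower genes, of which 147 and 113 were among those described here. Nlrp9a, Dnajb4, Isyna1, Klhl21 and Actb were among the genes no longer set apart. The part of GC content in how these libraries were made was not tested.

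**Figure D5:**
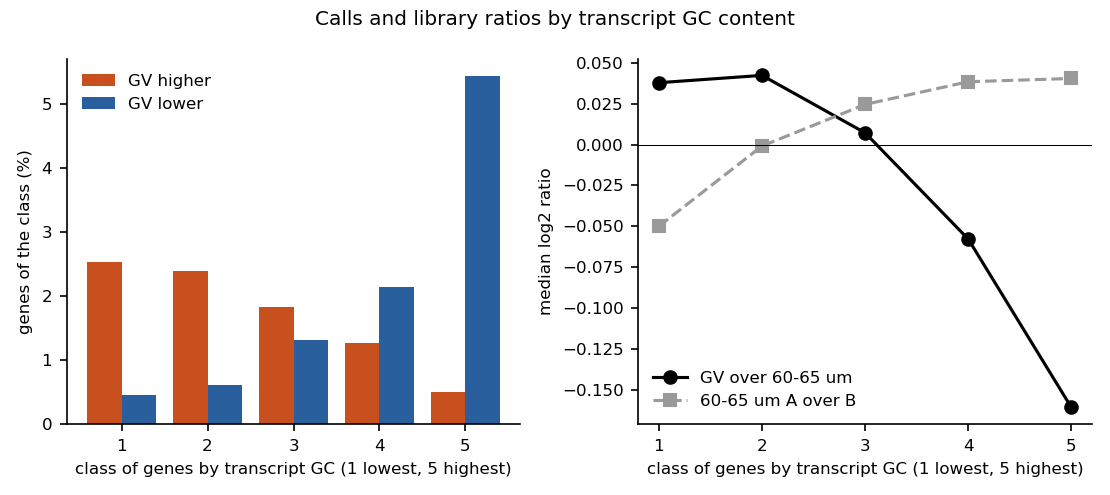
Share of higher and lower genes (left, bars, %) and median log2 ratio between libraries (right, points) in 5 equal classes of the genes by GC content of the transcript. The share of lower genes is 0.458% in the lowest class and 5.44% in the last, while the median ratio of the 60-65 um replicates moves by less than that of GV to 60-65 um.

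The median genomic span was 40593 bases for the higher, 6848 bases for the lower and 23233 bases for all genes compared, whereas the median exon length was 2776, 2497 and 3485 bases.

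Promoters differed in their content of CpG, the dinucleotide that carries methylation. In RefSeq windows of 300 bases around the start, of which 165 belonged to higher and 193 to lower genes (a gene can have several, and some have none), 41.2% of the windows of higher genes had at most 5 CpG, against 10.9% for lower genes and 11.7% for all genes compared. Over all RefSeq promoters, those of genes that were not compared included, it was 43.6%. The 250 bases before the start are shown for the 3 abundant genes of each direction with the largest fold that had a sequence, with CpG in capitals, on the plus strand of GRCm38.p6. Those of Mbd3l2 (chr9:18430365-18430614), 9130409I23Rik (chr1:181050987-181051236) and Zfp616 (chr11:74060647-74060896) had 0, 3 and 6 CpG, and those of Adad2 (chr8:119612463-119612712), Rps23 (chr13:90922872-90923121) and Id3 (chr4:136143572-136143821) had 12, 13 and 18. The RefSeq start lies far upstream of the start in the RNA table for Mbd3l2 and Zfp616 and slightly upstream for Adad2 and Rps23. For Id3 it lies downstream, so that the bases shown are inside the gene as the RNA table has it (136143497 to 136145755).
Mbd3l2: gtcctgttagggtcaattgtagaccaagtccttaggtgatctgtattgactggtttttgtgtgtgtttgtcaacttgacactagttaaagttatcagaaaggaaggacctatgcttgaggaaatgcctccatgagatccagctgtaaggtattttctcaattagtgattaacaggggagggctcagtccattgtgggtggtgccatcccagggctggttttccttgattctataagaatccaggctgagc
9130409I23Rik: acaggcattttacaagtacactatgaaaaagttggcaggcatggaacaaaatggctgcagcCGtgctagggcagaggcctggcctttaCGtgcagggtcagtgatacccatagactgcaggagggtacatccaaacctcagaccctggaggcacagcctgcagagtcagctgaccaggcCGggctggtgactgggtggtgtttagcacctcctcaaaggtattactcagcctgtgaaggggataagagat
Zfp616: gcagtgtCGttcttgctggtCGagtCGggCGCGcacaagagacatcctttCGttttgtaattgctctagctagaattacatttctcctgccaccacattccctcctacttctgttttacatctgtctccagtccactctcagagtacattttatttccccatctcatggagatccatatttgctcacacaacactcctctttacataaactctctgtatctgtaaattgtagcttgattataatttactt
Adad2: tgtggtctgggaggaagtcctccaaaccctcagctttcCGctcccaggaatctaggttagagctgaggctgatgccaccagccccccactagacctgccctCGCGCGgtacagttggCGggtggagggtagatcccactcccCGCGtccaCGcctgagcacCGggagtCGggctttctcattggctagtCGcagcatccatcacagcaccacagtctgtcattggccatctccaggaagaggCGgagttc
Rps23: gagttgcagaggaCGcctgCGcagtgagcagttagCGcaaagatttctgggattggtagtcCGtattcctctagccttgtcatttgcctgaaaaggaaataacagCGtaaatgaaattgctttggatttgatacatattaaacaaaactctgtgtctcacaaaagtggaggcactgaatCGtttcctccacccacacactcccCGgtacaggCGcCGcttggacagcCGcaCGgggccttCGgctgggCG
Id3: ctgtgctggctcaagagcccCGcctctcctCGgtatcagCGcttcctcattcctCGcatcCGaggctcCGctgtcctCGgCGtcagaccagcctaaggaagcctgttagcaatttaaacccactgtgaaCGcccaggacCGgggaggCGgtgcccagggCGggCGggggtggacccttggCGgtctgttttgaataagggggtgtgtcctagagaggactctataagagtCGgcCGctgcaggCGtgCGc

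Of 7 short motifs looked for on both strands of these windows, CAGGTG was in 29.7% of the windows of higher genes, 17.1% of those of lower genes and 18.5% of those of all genes compared. GGGCGG, which itself holds a CpG, was in 37.6%, 61.7% and 62.8%, and CACGTG in 9.09%, 16.6% and 10.4%. TATAAA was in 12.7%, 10.4% and 7.12%, TAATTA in 5.45%, 1.55% and 2.71%, TAATTG in 10.9%, 4.15% and 5.11%, and CCGGAAG in 4.85%, 15.5% and 19.6%. Over all RefSeq promoters, those of genes that were not compared included, the shares were 20.2% for CAGGTG, 35.7% for GGGCGG, 7.15% for CACGTG, 13.6% for TATAAA, 5.29% for TAATTA, 8.0% for TAATTG and 8.86% for CCGGAAG. A match describes the letters and says nothing of binding.

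DNA methylation was read in 1 whole-genome bisulphite (PBAT) library of 60-65 um oocytes, that is, before the GV stage and without a replicate. The median methylation of gene bodies was 23.9% for 147 higher genes, 26.2% for 131 lower genes and 32.5% for 8763 genes compared, over CpG cytosines with at least 5 reads. In the lowest of 3 equal classes of genes by level at 60-65 um, the medians were 22.0%, 26.2% and 32.7%. In the middle class they were 42.6% for 16 higher genes, 27.8% for 29 lower genes and 35.1% for all. In the highest class they were 50.4% for 9 higher genes, 15.7% for 5 lower genes and 29.6% for all.

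Gene starts were little methylated in both groups, with medians of 3.55% for 98 higher genes, 3.45% for 185 lower genes and 3.19% for all genes compared. Among single genes, the body of Zfp616 was at 54.6%, that of Trps1 at 43.9%, that of Nlrp9a at 49.8% and that of 9130409I23Rik at 4.25%. Sohlh1 was at 7.22% in its body and Adad2 at 44.0%, while the start of Rps23 was at 0.461%. The start of Ccnb3 was at 80.0% and its body at 50.4%.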

How the data were processed

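Oocytes of C57BL/6Babr mice (C57BL/6 per the labels) were profiled by strand-specific total RNA-seq and by bisulphite sequencing, and 16 samples were given. The authors trimmed reads with Trim Galore and aligned RNA reads to GRCm38 with TopHat2 2.0.9 (versions per the submitters' processing notes). The methods name Cufflinks for the expression of transcripts and SeqMonk for work on the RNA-seq data, but not which of them made the table. The authors deposited RPKM, with replicates kept apart. Tests had been set out to use counts if the table held them, and limma was used since it holds RPKM. For PBAT the authors deposited, for each CpG cytosine, the percent methylated and the counts of methylated and unmethylated calls. The percent was computed again from the counts. The 6 RRBS libraries were not used here.

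RPKM values in all 9 libraries were whole multiples of 1 step per gene at 99.6% of the 9988 genes compared (within 0.02 of a read), and gave library totals of 99370000 to 198300000 reads. Between 45.0% and 49.9% of the recovered read numbers were even, as they should be when no total is doubled.

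The rule used RPKM as deposited, with no pseudocount. Gene members and lists were chosen with earlier results of these data known. Genes named by fold (the 15 largest in each direction) or by level (the 5 highest) have a span of at least 300 bases. They have at least 5 RPKM in GV (higher) or in both 60-65 um libraries (lower). The genes next to the limit have that span and at least 5 RPKM in all 3 libraries. Up to 4 members of each list and the marker lists were named in addition, without this floor. Some of the genes that meet these rules are not described.

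Growth was tested with limma 3.58.1 in R 4.3.3, with a variance trend, on log2 of RPKM plus 0.1 after trimmed-mean scaling (30% left out at each end by ratio, 5% by level), over 6 libraries, for genes of at least 0.5 RPKM in 2 of them, with Benjamini-Hochberg adjustment. On simulated data with the spread of these libraries it called 140 of 200 genes changed 2-fold among 10321 genes, with 5 false calls, and 0 genes when nothing was changed. The simulated libraries varied independently, unlike the real ones, in which A and B differ alike across size classes. Nothing says that A and B came from separate animals, so p-values measure the spread between these samples. Differences of A from B correlated between size classes at 0.60 to 0.67 across 10321 genes, so the letters were taken to pair the samples. The counts, SEs and p-values of growth nevertheless come from a fit with no block for the letters. With the block, run as an alternative, 3478 genes rose and 3650 fell, in place of 2458 and 2631. Methylation used positions with at least 5 reads, genes of at least 4 kb with 10 positions, and 500 bases on each side of a start with 5. Promoters and names came from RefSeq GRCm38.p6. Transcript GC was that of the longest GENCODE transcript of each gene name. Scripts ran in Python 3.11.15 with numpy 2.4.6, pandas 2.3.3 and matplotlib 3.10.9.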

Additional observations from a re-analysis of the deposited data

How the results depend on the processing

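The number of genes set apart (175 higher, 202 lower) depended most on how low values were treated. It was 54 and 25 with 1 RPKM added to each value (without H2-K1, Esyt3, Pla1a, Actb and Dnajb4 among 35 named genes), 2041 and 1382 with no filter, 86 and 127 at a minimum of 1 RPKM, 12 and 20 at a minimum of 5 RPKM, and 38 and 26 at 2-fold. Against the mean of the 60-65 um libraries 313 genes were lower. Without 1 of the 60-65 um libraries, higher genes numbered 205 to 365 and lower genes 301 to 413, the larger counts being those without replicate A. The correction for GC, an alternative chosen after seeing the data, gave 124 lower genes, of which 113 were among the 202, and kept 26 of 34 named genes, without Isyna1, Zfp707, Klhl21, Gm10566, Nlrp9a, Actb, Rps4y2 and Dnajb4. Trimmed-mean scaling gave 194 higher and 166 lower genes, moved the median of all genes from -0.02 to 0.00048 (log2), and turned the sign of 1 list median, that of amino acid and glucose transport, to 0.0233. Without overlapping genes and pseudogenes, also chosen after seeing the data, 166 and 185 genes were set apart. The causes were not tested.

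Leaving out 1 of the 6 libraries of smaller oocytes gave 1358 to 2518 genes that rose and 1356 to 2500 that fell, with 35 to 61 of the higher genes rising and 65 to 95 of the lower genes falling. The fewest were without a 50-55 um library, where the lone library of that class is assumed to vary like the others. Without a filter 125 of the higher genes rose. A rise is in part built in there, since all higher genes were at 0.5 RPKM or more in GV, whatever their level in smaller oocytes. With all 8 libraries of growing oocytes 102 rose, but that fit includes libraries the rule had used. At a mean of 5 RPKM 15 of 16 higher genes rose and 7 of 17 lower genes fell. Among all 3777 such genes 33.4% rose and 15.8% fell. That level was taken in the libraries the rule used, and Mbd3l2 and Gm13089 among the 16 passed only through 50-55 um. With replicate letters as a block, 3478 genes rose and 3650 fell in all, 67 higher genes rose and 115 lower genes fell, and no count moved by over 1.5 times. Median gene body methylation was 24.2% and 23.7% for higher genes, 27.1% and 25.2% for lower genes and 35.0% and 31.3% for all genes at 3 and 10 reads per position.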

Other observations

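The largest folds among all higher genes lay at low levels and outside the rule for named genes, and the genes given here were chosen after their values were seen. Rgn, which encodes the calcium-binding protein regucalcin, had 0.917 and 0.382 RPKM at 60-65 um and 2.85 RPKM in GV, from 155, 111 and 909 reads. Slc6a15, an amino acid transporter, had 1.03, 0.546 and 3.08 RPKM, and was at 0.0138 and 0.0155 RPKM at 10-30 um. Htr5a, a serotonin receptor, had 1.00, 0.470 and 2.95 RPKM. Its relative Htr5b was among the lower genes, with 1.81 and 1.92 RPKM at 60-65 um and 0.756 RPKM in GV. In the first 3 genes replicate A of 60-65 um was the higher of the pair.

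Among lower genes chosen in the same way, Dusp5, a phosphatase of ERK kinases, had 1.504 and 2.04 RPKM at 60-65 um and 0.467 RPKM in GV. Xbp1, a transcription factor of the unfolded protein response, had 0.715, 0.902 and 0.371 RPKM, after 4.42 and 4.75 RPKM at 10-30 um. Maged1 had 28.4 and 31.3 RPKM at 10-30 um and 2.73, 3.76 and 1.41 RPKM in 60-65 um A, B and GV. GV was the lowest of the 9 libraries for each of these 3 genes.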
